A study of Mus musculus with 4 samples.

Results

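The cholesterol and fatty acid synthesis genes were followed in RNA-seq libraries of mouse colon as a list of 28 named enzymes and regulators, matched by gene symbol in a gene table of 23074 symbols. All 28 symbols were in the table, and 27 of them passed the expression filter used for testing. The study had 4 libraries from the first 2 cm of colon after the caecum, taken at 6 weeks of age from mice of mixed strain. The 2 control libraries had the genotype Nkx2.2flox/+ with no Cre given, and the 2 mutant libraries had Nkx2.2flox/flox with Villin-Cre/+. Villin-Cre acts in the intestinal epithelium, so cells of the muscle layer, fat, vessels and immune system in the same piece of colon keep their floxed alleles. The groups differ both in Cre and in the number of floxed alleles, and effects of these cannot be told apart. The labels do not say whether each library is a different mouse, so p-values here measure the spread between libraries, which may be technical.

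Cells make cholesterol from acetyl-CoA through mevalonate and isoprenoid intermediates, which are joined to squalene, closed to a sterol ring and trimmed in a series of steps. The membrane-bound transcription factors SREBP, encoded by Srebf1 and Srebf2, switch on these enzymes when membrane cholesterol is low, and the Insig proteins hold SREBP back in the endoplasmic reticulum when it is high. Fatty acid synthesis uses the same acetyl-CoA, and its enzymes are abundant in fat cells as well as in epithelium. Levels below are FPKM, fragment counts scaled by transcript length and library total, a unit that can be compared between genes.

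No synthesis gene passed the test of mutant against control. In limma on log2(FPKM + 0.5), 0 passed an adjusted p of 0.05, against 0.0643% of all 13997 tested genes, and 0 had an unadjusted p under 0.05 in either direction (0.7% of all tested genes were higher and 4.12% lower at that level). The smallest unadjusted p among the 27 was 0.304, for the lanosterol synthase gene Lss, with an adjusted p of 0.825. The authors' deposited table, made with DESeq, likewise has 0 of 27 genes at an adjusted p under 0.05 (0.0384% of its genes) and a smallest unadjusted p of 0.200, for Fdps. As deposited, the second library exceeded the first by a median log2 difference of 0.33 in the controls and 0.47 in the mutants over the 27 genes. The median change from control to mutant was 0.09. After rescaling libraries by their median ratio these were 0.40, 0.28 and 0.26. The widest gap within a group was that of Insig1, at 26.2 FPKM in control 1 and 78.5 FPKM in control 2.

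The targeted gene gives only a weak check of the labels. Nkx2-2, the transcription factor removed by the cross, stood at 0.724 and 0.609 FPKM in the controls and at 0.125 and 0.351 FPKM in the mutants. Both mutant values lay below both controls, which held for 35.1% of all tested genes. Its mean was under the 0.5 FPKM needed for testing, so it was not tested. With the depth of control 1 set to 1, mutant 1 was the shallowest library at 0.464 and the remaining pair stood at 1.13 (control 2) and 1.03 (mutant 2). Epithelial markers such as Epcam and Vil1 were present in every library, with a summed level over 10 markers of 23346 and 31987 FPKM in the controls and 25620 and 25567 FPKM in the mutants. Car1 alone gave most of each sum, at 15111.6 and 22062.5 FPKM in the controls and 17319.6 and 16277.6 FPKM in the mutants. Control 1 stood apart in B cell markers, whose 6 genes summed to 132.8 FPKM there and to between 9.996 and 14.3 FPKM in the other libraries. Over all 13997 tested genes the log2 changes had a median of -0.17 in the FPKM as given and -0.01 once libraries were rescaled by their median ratio, so each direction below is given on both scales where it matters.

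The synthesis genes covered a wide range of levels. Scd2, one of the stearoyl-CoA desaturases that put a double bond into saturated fatty acids, had the highest mean level, and Acaca, the acetyl-CoA carboxylase that commits carbon to fatty acids, the lowest of those detected. Between them stood the enzymes of the cholesterol path, from a mean over the 4 libraries of 9.64 FPKM for Hsd17b7 to 80.6 FPKM for Fdps. The plot of levels by library shows each gene.

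**Figure D1:**
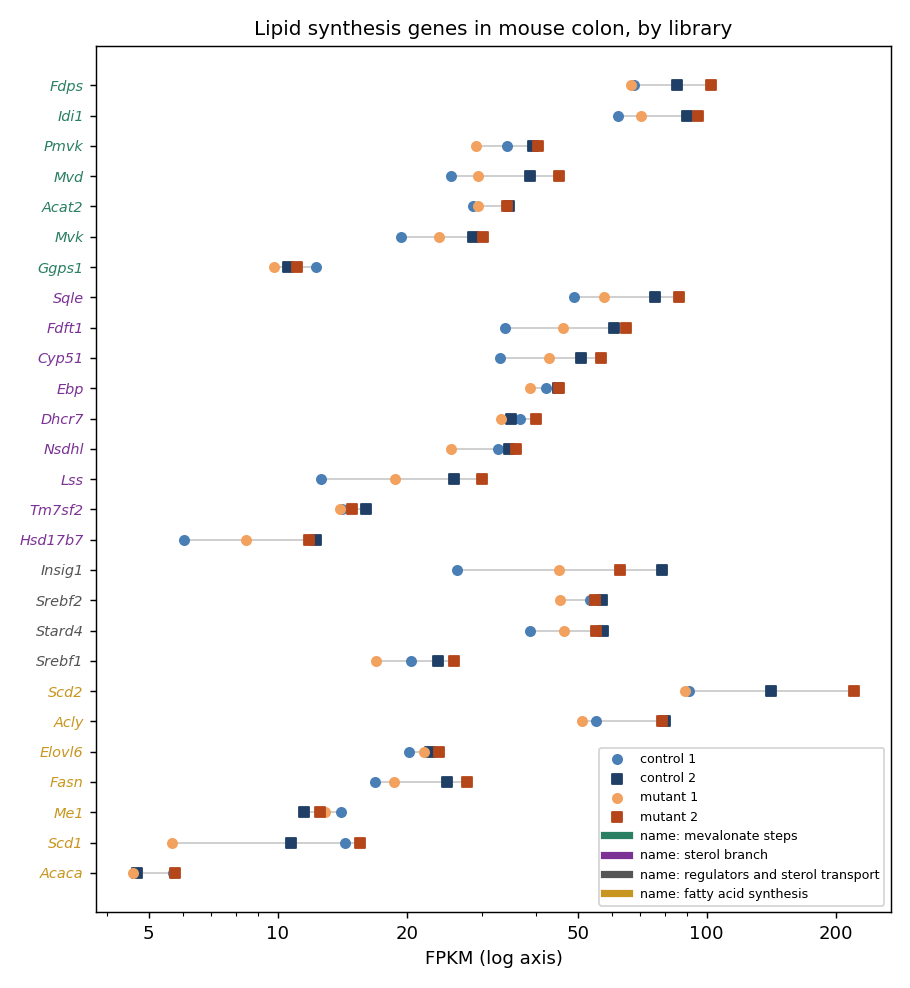
FPKM of the 27 detected synthesis genes (log axis), with 1 point for each library and gene names coloured by role. The groups overlap in every gene, and in 22 of 27 genes the first library of each group lies to the left of the second, as in Lss (12.6 against 25.8 FPKM in controls, 18.7 against 29.9 FPKM in mutants).

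Hmgcs1, the synthase that makes the precursor of mevalonate, was the 1 member without a usable value. It was listed at 0 FPKM in all 4 libraries, and the authors' deposited table has a mean count of 0 in both groups. The files place it in a pair of rows on unplaced mm9 sequence, chr13_random, at 114710 to 132325 and at 308620 to 326235. All 143 rows on such random sequence were listed at 0 in every library, against 12.1% of the other 23556 rows. The value of 0 is therefore shared by every gene annotated there and gives no level for Hmgcs1 in colon.

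Promoter sequence was taken from RefSeq windows on GRCm38.p6 (250 bases before to 50 after the start), which hold 22 of the 28 genes; Fdps, Fdft1, Sqle, Stard4, Scd1 and Scd2 were not matched. The letters of the NF-Y box, CCAAT on either strand, were in at least 1 window of 19 of the 22 genes (86.4%), against 41.1% of 27025 genes in the same table. NF-Y is known to act beside SREBP at promoters of this path. The E-box CACGTG was in 3 of the 22 (13.6%, against 8.09%), and the sterol regulatory element written as TCACNCCAC in 1 of the 22 (4.55%, against 1.44%), which was Hmgcs1. These shares describe letters in a fixed window and were not tested. The 250 bases before the start are shown for Insig1, Lss and Hsd17b7, the matched genes with a single window whose levels spread most between libraries, and for Hmgcs1, with matches to the searched letters, on either strand, in capitals.
Insig1: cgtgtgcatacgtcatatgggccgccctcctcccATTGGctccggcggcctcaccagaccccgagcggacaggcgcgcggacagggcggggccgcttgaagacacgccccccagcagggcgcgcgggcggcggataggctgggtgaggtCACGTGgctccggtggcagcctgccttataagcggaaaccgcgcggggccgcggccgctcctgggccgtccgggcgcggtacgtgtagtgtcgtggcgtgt
Lss: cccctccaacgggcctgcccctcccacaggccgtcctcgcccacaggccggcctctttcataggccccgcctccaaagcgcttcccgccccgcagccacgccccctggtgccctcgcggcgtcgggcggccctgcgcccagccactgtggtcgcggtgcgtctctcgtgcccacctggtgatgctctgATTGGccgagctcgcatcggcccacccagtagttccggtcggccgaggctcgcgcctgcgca
Hsd17b7: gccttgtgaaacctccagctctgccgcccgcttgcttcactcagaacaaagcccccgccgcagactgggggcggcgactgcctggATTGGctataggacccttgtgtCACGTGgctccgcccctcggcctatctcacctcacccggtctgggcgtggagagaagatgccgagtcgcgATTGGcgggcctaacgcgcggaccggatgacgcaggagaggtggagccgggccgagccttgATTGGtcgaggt
Hmgcs1: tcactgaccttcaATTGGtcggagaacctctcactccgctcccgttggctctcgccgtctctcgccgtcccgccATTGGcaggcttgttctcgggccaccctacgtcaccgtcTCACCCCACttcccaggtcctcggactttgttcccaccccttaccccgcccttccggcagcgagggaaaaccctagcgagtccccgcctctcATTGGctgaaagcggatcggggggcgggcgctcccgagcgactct
They lie on GRCm38.p6 at chr5:28071162-28071411 (plus strand, Insig1), chr10:76531355-76531604 (plus strand, Lss), chr1:169969206-169969455 (minus strand, Hsd17b7) and chr13:119690101-119690350 (plus strand, Hmgcs1). Insig1 holds 1 CCAAT match and 1 E-box, Lss 1 CCAAT match, Hsd17b7 3 CCAAT matches and 1 E-box, and Hmgcs1 3 CCAAT matches with the sterol element between them.

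The first role is the run from acetyl-CoA to the isoprenoids. Idi1, the isomerase that readies the isoprenoid unit for chain building, stood at 62.1 and 89.9 FPKM in the controls and at 70.1 and 95.5 FPKM in the mutants. Fdps, which builds farnesyl diphosphate, stood at 67.7 and 85.4 FPKM in the controls and at 66.7 and 102.5 FPKM in the mutants. Mvd, the decarboxylase before Idi1, stood at 25.4 and 38.8 FPKM in the controls and at 29.3 and 45.4 FPKM in the mutants. In each of these genes the second library of a group was higher than the first, and the groups overlapped. Pmvk, a kinase of the same run, stood at 34.2 and 39.3 FPKM in the controls and at 28.9 and 40.4 FPKM in the mutants, with the lowest and the highest value both in mutants. The log2 changes of the 7 tested genes ran from -0.12 for Ggps1, which makes the isoprenoid for protein prenylation and not for sterols, to 0.21 for Mvd. After rescaling all 7 were above 0, from 0.043 for Ggps1 to 0.38 for Mvd, with Pmvk and Ggps1 turned. The kinase gene Mvk was also higher in the second libraries (19.4 and 28.5 FPKM in controls, 23.8 and 30.1 FPKM in mutants). Acat2, the thiolase that opens the path, lay between 28.5 and 34.6 FPKM.

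The sterol branch, from squalene to cholesterol, gave the widest swings among the cholesterol enzymes. Lss, which closes the sterol ring, stood at 12.6 and 25.8 FPKM in the controls and at 18.7 and 29.9 FPKM in the mutants. Its log2 change was 0.38 (SE 0.34, 95% interval -0.41 to 1.17), which in fold runs from 0.751 to 2.25. Fdft1, the squalene synthase, stood at 33.8 and 60.8 FPKM in the controls and at 46.3 and 64.9 FPKM in the mutants. Over 773 bases its mm9 span overlaps that of Ctsb, a more abundant gene at 136.7 to 175.8 FPKM, and no source used here says that strand was counted, so reads in that stretch cannot be told apart. In both genes the order of the libraries, from low to high, was control 1, mutant 1, control 2 and mutant 2.

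Sqle, the squalene epoxidase and a control point of the path, followed that order at 49.0 and 75.6 FPKM in the controls and 57.5 and 86.2 FPKM in the mutants. So did Cyp51, the lanosterol demethylase, at 32.9 and 50.9 FPKM in the controls and 42.9 and 56.6 FPKM in the mutants. Hsd17b7, a reductase of the demethylation steps, stood at 6.05 and 12.2 FPKM in the controls and at 8.41 and 11.8 FPKM in the mutants. Of the other enzymes of the branch, Ebp, Dhcr7 and Tm7sf2 moved little between libraries, while Nsdhl differed by a factor of 1.42 between the mutants. The isomerase gene Ebp ran from 38.6 to 45.2 FPKM, the reductase gene Dhcr7, which removes a double bond of the sterol ring, from 33.1 to 39.9 FPKM, and the reductase gene Tm7sf2 from 14.0 to 16.1 FPKM. Nsdhl, a dehydrogenase of the demethylation steps, stood at 32.6 and 34.5 FPKM in the controls and at 25.3 and 35.9 FPKM in the mutants. The 95% intervals of the log2 change were -0.47 to 0.36 for Ebp, -0.41 to 0.45 for Dhcr7 and -0.50 to 0.38 for Tm7sf2. Among all 27 genes the interval reached a 2-fold higher level only in Lss, Insig1 and Scd2, and a level lower by a factor of 2 only in Scd1.

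Of the regulators, Insig1 varied most of all 27 genes and Srebf2 little. Insig1, itself a known SREBP target, stood at 26.2 and 78.5 FPKM in the controls and at 45.1 and 62.9 FPKM in the mutants. Both mutant values lay between the control values, which differed by 1.57 on the log2 scale. The deposited 95% interval was 24.5 to 27.9 FPKM in control 1 and 75.8 to 81.3 FPKM in control 2, which covers counting error only, so that gap is larger than counting error. Its log2 change was 0.23 with an interval of -0.77 to 1.23, which in fold reaches 2.34. Srebf2, the SREBP of cholesterol genes, stood at 53.4 and 57.1 FPKM in the controls and at 45.5 and 54.9 FPKM in the mutants. Srebf1, the SREBP of fatty acid genes, stood at 20.4 and 23.7 FPKM in the controls and at 17.0 and 25.7 FPKM in the mutants. Stard4, a carrier that moves cholesterol between membranes, stood at 38.7 and 57.4 FPKM in the controls and at 46.4 and 55.1 FPKM in the mutants. For Insig1 and Stard4 the mutants again fell between the controls.

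Among the fatty acid synthesis genes, some varied with the cholesterol enzymes, some were steady, and the desaturases stood apart. Acly, which makes cytosolic acetyl-CoA from citrate, stood at 55.3 and 80.0 FPKM in the controls and at 51.2 and 78.6 FPKM in the mutants. Fasn, the fatty acid synthase, stood at 16.8 and 24.8 FPKM in the controls and at 18.6 and 27.6 FPKM in the mutants. These genes shared the higher second library of the cholesterol enzymes. Elovl6, which lengthens palmitate, was steady at 20.2 and 22.7 FPKM in the controls and 21.9 and 23.8 FPKM in the mutants, as was Me1, the malic enzyme that supplies NADPH, at 11.5 to 14.0 FPKM. Acaca stood at 5.69 and 4.69 FPKM in the controls and at 4.58 and 5.75 FPKM in the mutants.

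The desaturases differed most between the mutant libraries. Scd2 stood at 91.0 and 141.4 FPKM in the controls and at 89.0 and 221.1 FPKM in the mutants. Scd1 stood at 14.4 and 10.7 FPKM in the controls and at 5.65 and 15.5 FPKM in the mutants, a 2.75-fold difference within the mutants. Both genes lie on chromosome 19 of mm9, Scd2 at 44368166 to 44381352 and Scd1 at 44468940 to 44482199. They are close relatives, so the split of reads between them is uncertain where their sequences match. Their log2 changes were 0.30 for Scd2 (SE 0.39, interval -0.60 to 1.20) and -0.38 for Scd1 (SE 0.40, interval -1.30 to 0.54), with adjusted p-values of 0.837 and 0.830 in limma.

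Most markers of fat cells had their lowest and highest levels in the same libraries as the desaturases. The 8 adipocyte markers summed to 62.1 and 77.5 FPKM in the controls and to 34.1 and 98.2 FPKM in the mutants, with mutant 1 lowest in 6 of 8 and mutant 2 highest in 7 of 8. Of all tested genes, 66.3% were lowest in mutant 1 and 19.3% highest in mutant 2, so the first of these counts is near the background. Fabp4 alone gave most of each adipocyte sum, at 43.6 and 45.7 FPKM in the controls and 23.9 and 52.4 FPKM in the mutants. Of the adipocyte markers only Lep and Adrb3 departed from that placement, both under 1 FPKM in every library. The placement was not particular to fat cells. Of the 8 markers of dividing cells, mutant 1 was lowest in 5 and mutant 2 highest in 7. Adipoq, the adiponectin gene, stood at 2.08 and 2.47 FPKM in the controls and at 0.559 and 5.79 FPKM in the mutants. Cfd, the adipsin gene, stood at 7.26 and 16.1 FPKM in the controls and at 1.20 and 23.1 FPKM in the mutants, and Retn, the resistin gene, was listed at 0 in mutant 1 and stood at 5.02 FPKM in mutant 2. Thrsp, a lipogenic factor, had the same order, with 1.20 and 3.41 FPKM in the controls and 0.690 and 4.35 FPKM in the mutants. The part of fat tissue in the levels of Scd1 and Scd2 was not tested. In bulk tissue, fewer cells of a type and less RNA per cell cannot be told apart.

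**Figure D2:**
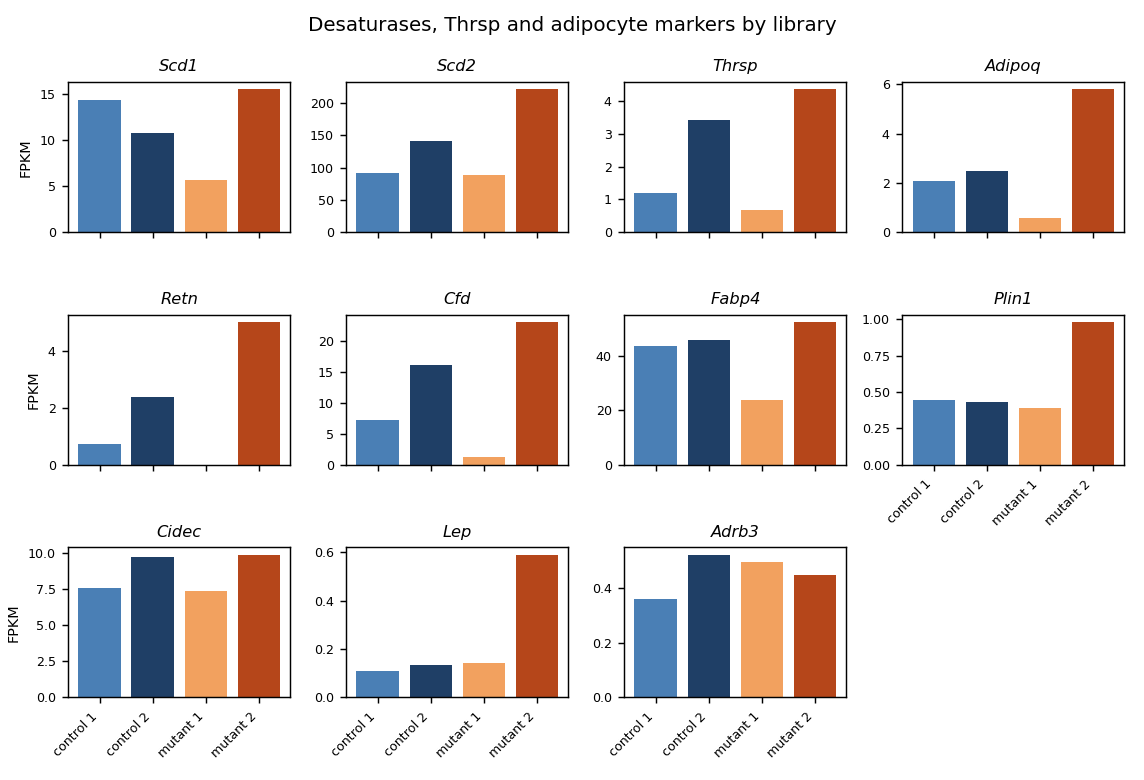
Bars give FPKM of Scd1, Scd2, Thrsp and all 8 adipocyte markers in each of the 4 libraries, each panel with its own axis from 0. Mutant 2 is the highest and mutant 1 the lowest bar in every panel except Lep, which is lowest in control 1, and Adrb3, which is lowest in control 1 and highest in control 2.

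As a list, the 27 genes had a median log2 change of 0.09, against -0.17 for all tested genes, and 17 were higher and 10 lower in the mutants, where 17.4% of all tested genes were higher. After median ratio rescaling the median was 0.26 and the split 26 higher and 1 lower, with 48.6% of all tested genes higher. The 1 lower gene was Scd1. Quantile normalization also gave 26 higher and 1 lower, with a median of 0.25 and with 50.3% of all tested genes higher. The authors' deposited table, which uses its own scaling, has 26 of 27 higher with a median log2 value of 0.19, against 48.7% of its genes with a mean count of at least 10. These directions were not kept without control 1. Leaving it out, 4 were higher and 23 lower (24.5% of all tested genes were higher), and the median of -0.13 was close to the -0.14 of all tested genes. With rescaling and without control 1, 16 were higher and 11 lower, with a median of 0.01. Of all tested genes 48.2% were then higher, with a median of -0.01. Without mutant 2, 6 were higher and 21 lower, with a median of -0.11 against -0.28 for all tested genes, of which 15.1% were higher. With rescaling and without mutant 2, 20 were higher and 7 lower, with a median of 0.16 and 45.1% of all tested genes higher. Leaving out control 2 gave 18 higher and 9 lower (19.7% of all tested genes higher), and 25 and 2 with rescaling (49.4%). Leaving out mutant 1 gave 23 higher and 4 lower (36.1%), and 27 and 0 with rescaling (51.5%).

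**Figure D3:**
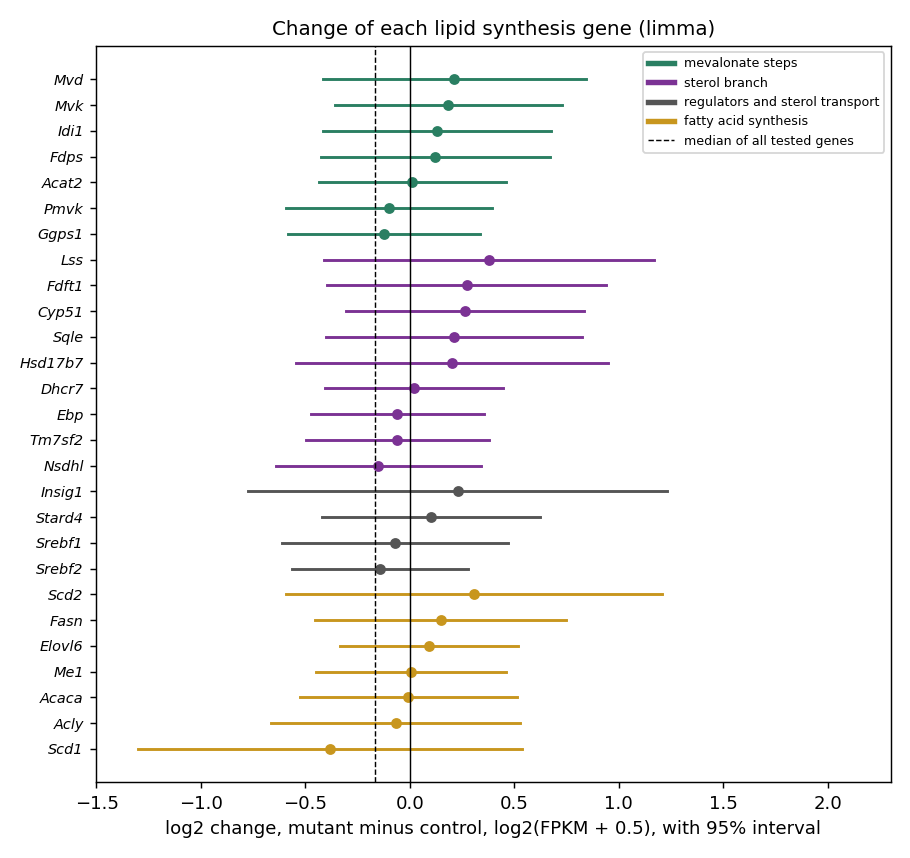
Points are limma log2 changes (mutant minus control, log2(FPKM + 0.5)) of the 27 tested synthesis genes and bars their 95% intervals, coloured by role. Every interval spans 0, and the points run from -0.38 for Scd1 to 0.38 for Lss around a dashed line at the median of all tested genes, -0.17.

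By role, the medians were 0.12 for the 7 mevalonate genes, 0.20 for the 9 genes of the sterol branch, 0.01 for the 4 regulators and 0.0050 for the 7 fatty acid genes as deposited. After rescaling they were 0.29, 0.36, 0.19 and 0.17 in the same order. In 0 of the 27 genes did both mutant libraries lie above both controls (3.39% of all tested genes), and in 0 did both lie below (35.1%). After rescaling both mutants lay above both controls in 3 genes, Ebp, Dhcr7 and Elovl6 (13.9% of all tested genes), and below in 0 (16.2%).

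The shared pattern of these genes was a difference between libraries of 1 genotype. In 22 of the 27 genes the second library was above the first both in the controls and in the mutants, which held for 29% of all tested genes. Control 1 was the lowest of the 4 libraries in 13 genes (8.84% of all tested genes), mutant 1 the lowest in 13 (66.3%), and mutant 2 the highest in 18 (19.3%). The full order control 1, mutant 1, control 2, mutant 2 appeared in 9 genes, which are 33.3% of the 27, against 1.42% of all tested genes. After rescaling, control 1 was lowest in 21 genes (26.2% of all tested genes), mutant 1 in 2 (32.5%), and that order appeared in 14 (4.45%). Mutant 2 was then highest in 19 genes (25.6%), and the second library was above the first in both groups in 20 (26.3%). These counts describe an order noticed in the same libraries and were not tested.

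**Figure D4:**
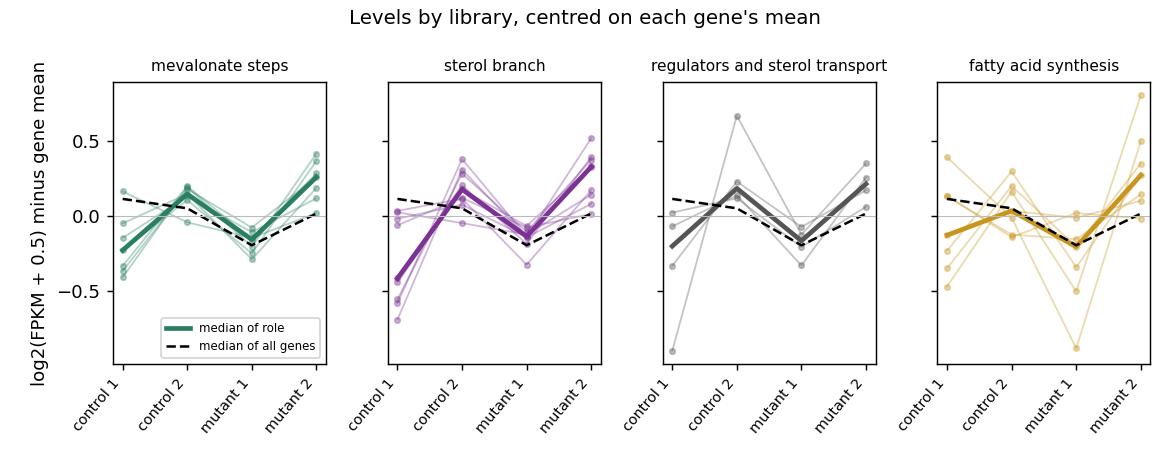
Thin lines show each tested gene as log2(FPKM + 0.5) minus its mean over the 4 libraries, with a thick line for the median of its role and a dashed line for the median of all 13997 tested genes. In the sterol branch the role median goes from -0.41 in control 1 to 0.33 in mutant 2, while the median of all genes goes from 0.11 to 0.02.

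The size of the swing differed by role in the controls, and less and in another order in the mutants. Control 2 exceeded control 1 by a median of 0.62 on the log2 scale in the sterol branch and 0.33 in the mevalonate genes. The median was 0.39 in the regulators and 0.16 in the fatty acid genes, against -0.06 for all tested genes. Mutant 2 exceeded mutant 1 by a median of 0.47, 0.44, 0.37 and 0.55 in the same roles, against 0.21 for all tested genes. After rescaling the medians in that order were 0.69, 0.40, 0.45 and 0.23 in the controls (-0.00 for all tested genes). In the mutants they were then 0.29, 0.25, 0.18 and 0.37 (0.03 for all tested genes). The deposited 95% intervals did not overlap, with control 2 above control 1, in 18 of 27 genes (12.4% of all genes with 1 row) and, with mutant 2 above mutant 1, in 22 of 27 (34.5%). In Ggps1, Dhcr7, Acaca, Scd1 and Me1 the FPKM of control 2 was below that of control 1, and in Me1 that of mutant 2 was also below that of mutant 1. Across the 16 cholesterol genes, the difference within the controls and the difference within the mutants correlated at Pearson r = 0.63 (Spearman rho 0.58). Across all 27 genes they correlated at r = 0.17 (rho 0.42), and over all tested genes at r = -0.00 (rho -0.08). These genes share the same 4 libraries, and mutant 1 has the lowest depth.

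**Figure D5:**
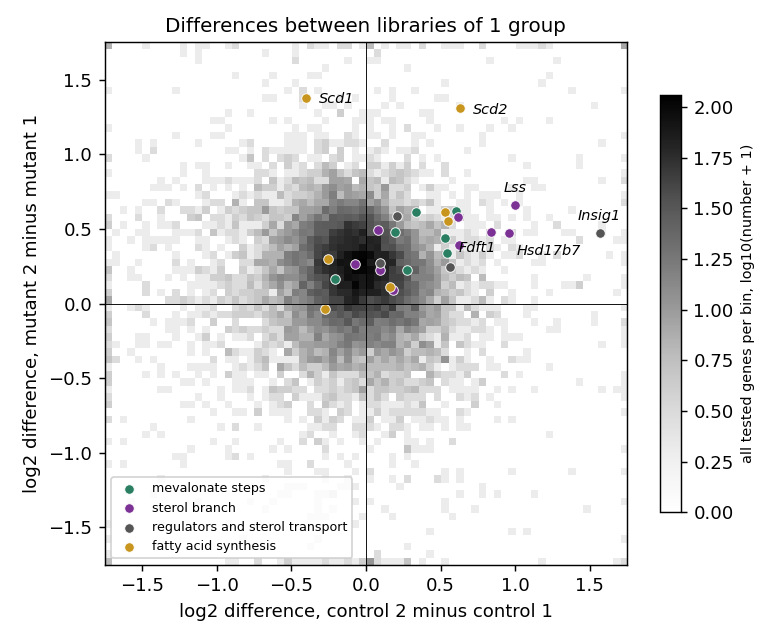
Each point is a synthesis gene, placed by its log2 difference between control 2 and control 1 (x axis) and between mutant 2 and mutant 1 (y axis), over a grey density of all tested genes, with values beyond the axes drawn at the edge. Of the 27 points 22 lie above 0 on both axes, with Insig1 farthest to the right and Scd1 and Scd2 at the top.

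Markers of several cell types also differed between these libraries. The 6 B cell markers, all 4 T cell and all 4 macrophage markers were highest in control 1 as deposited. In control 1 the T cell markers summed to 185.8 FPKM, of which Ccl5 gave 153.9 FPKM. The macrophage markers summed to 702.0 FPKM there, of which Lyz2 gave 643.0 FPKM. In the other libraries these sums ran from 60.9 to 115.1 FPKM and from 302.9 to 549.3 FPKM. Of the 10 epithelial markers 6 were lowest in control 1 (8.84% of all tested genes) and 8 highest in control 2 (3868 of the 13997 tested genes). After rescaling 9 were lowest in control 1 (26.2% of all tested genes) and 6 highest in control 2 (3246 of the 13997). The 8 markers of dividing cells summed to 254.6 and 215.4 FPKM in the controls and 201.0 and 284.9 FPKM in the mutants. The part of cell makeup in the levels of the synthesis genes was not tested.

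Genes around the synthesis path were compared through a further list of 33, of which 28 were tested. None passed an adjusted p of 0.05 in limma, and 1 had an unadjusted p under 0.05, which 4.12% of all tested genes had in the same direction. That gene was Soat1, which esterifies cholesterol for storage, at 9.96 and 9.97 FPKM in the controls and 6.28 and 7.72 FPKM in the mutants (log2 change -0.49, SE 0.21, limma unadjusted p = 0.0440, adjusted p = 0.825). After rescaling its change was -0.32, and 0 of the 28 had an unadjusted p under 0.05 in limma (smallest 0.0649, and 0.0717 after quantile normalization). Of the 28, 5 (17.9%) were higher and 23 lower (median -0.20), near the 17.4% of all tested genes that were higher (median -0.17). After rescaling 11 (39.3%) were higher and 17 lower (median -0.04), with 48.6% of all tested genes higher (median -0.01). Both mutants lay below both controls in 8 of the 28, near the 35.1% of all tested genes.

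Sc4mol, the methyl sterol oxidase and the most abundant of the 28, stood at 83.0 and 147.0 FPKM in the controls and at 111.4 and 148.7 FPKM in the mutants. Sc5d stood at 36.3 and 51.0 FPKM in the controls and at 37.4 and 54.4 FPKM in the mutants. Both genes were higher in the second library of each group. Slc25a1, the citrate carrier that feeds Acly, was next in level, at 90.5 and 98.5 FPKM in the controls and 71.3 and 95.6 FPKM in the mutants. Of the liver X receptor genes and their targets, which answer to high sterol, 5 were tested (Nr1h2, Nr1h3, Abca1, Abcg1, Mylip). All 5 were lowest in mutant 1, as were 66.3% of all tested genes. The second library was higher in both groups in 0 of the 5 as deposited (29% of all tested genes). After rescaling it was so in 2 (26.3%). A list of 5 genes is too short to tell these counts from those shares. Scap, the escort of SREBP, stood at 21.4 and 22.7 FPKM in the controls and at 13.9 and 18.5 FPKM in the mutants. As deposited it had an unadjusted p of 0.0620 and an adjusted p of 0.825 in limma. Both mutants lay below both controls, as in 35.1% of all tested genes. The log2 change of Scap was -0.44 as deposited and -0.28 after rescaling.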

How the data were processed

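RNA was measured in 2 control and 2 mutant libraries. Per the submitters' processing notes the authors used bcl2fastq 1.8.4, TopHat, Cufflinks and DESeq, with mm9. Per the file headers, the authors gave FPKM with a 95% interval and status per gene and isoform, and coverage (a signal) and length per isoform. The authors' deposited table holds DESeq output: mean normalized counts per group (a signal), the ratio of mutant to control, the log2 of that fold, and a raw and an adjusted p-value.

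Of 23699 rows, 306 lacked status OK in some library and were dropped, and rows of a symbol were summed. Genes averaging 0.5 FPKM or more were fitted as log2(FPKM + 0.5) with limma 3.58.1 in R 4.3.3, with a variance trend, and adjusted by Benjamini-Hochberg over all 13997 genes. Changes on this scale understate those of low genes. The fit, tested on simulated data, had 2 residual degrees of freedom, with a median prior of 6.27. Relative depth is the ratio of isoform coverage to FPKM. With 2 libraries against 2, no exact permutation test of a single gene can reach 0.05, so none is given. By rule, values per library were printed for synthesis genes that passed, had an unadjusted p under 0.05 or did not overlap between groups (none) and for the 3 most abundant of each role (Pmvk, Idi1, Fdps; Fdft1, Sqle, Cyp51; Srebf2, Insig1, Stard4; Acly, Elovl6, Scd2) and, of the other lipid genes, for those with an unadjusted p under 0.05 (Soat1) and the 2 most abundant (Sc4mol, Slc25a1). Other genes with such values, Lss, Hsd17b7, Scd1, Scap and Thrsp among them, were chosen after their values were seen. The members and all lists were chosen with earlier results of these data known. Alternatives covered the pseudocount, filter, scaling, variance trend, status filter, replicate number, each library left out and the authors' table. Some genes of the path are not reported here.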

Additional observations from a re-analysis of the deposited data

How the results depend on the processing

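No synthesis gene and none of the other 28 lipid genes passed the threshold in limma under any of the 13 planned settings or in the authors' deposited table (0 in each). At an unadjusted p under 0.05 there were 3 of 27 synthesis genes without control 2 (8.13% of all tested genes), 2 without mutant 2 (16.0%), 1 without mutant 1 (2.98%) and 0 under the other settings. Where a group keeps 1 library, that library is assumed to vary like the other group. The number of all genes past the threshold, 9, was 2 with no filter, 3 after median ratio rescaling, 2 after quantile normalization and 195 with the replicate block, and ran from 8 to 362 with each library left out (124 without control 1, 362 without control 2). The replicate numbers share no label of litter or batch, so they were not treated as pairs. Same-numbered deviations correlated at -0.00 over 13997 genes, a value that does not describe subsets of genes. Over the 16 cholesterol genes the same correlation was r = 0.63. The block changed no call among the synthesis genes. The median of the 27 ran from -0.13 without control 1 to 0.24 without mutant 1 when each library was left out, was 0.26 after median ratio rescaling and 0.25 after quantile normalization, and, with rescaling in settings chosen after seeing the data, from 0.01 without control 1 to 0.40 without control 2.

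Of the 27 log2 changes, 9 turned from below to above 0 after rescaling and quantile normalization, and in the authors' deposited table, which also differs in its counts and test. They were 0.072 for Pmvk, 0.043 for Ggps1, 0.11 for Tm7sf2, 0.021 for Nsdhl, 0.11 for Ebp, 0.10 for Srebf1, 0.030 for Srebf2, 0.11 for Acly, 0.15 for Acaca after median ratio rescaling. In the same order they were 0.066, 0.062, 0.12, 0.010, 0.11, 0.10, 0.016, 0.11 and 0.20 after quantile normalization and 0.049, 0.014, 0.12, 0.014, 0.10, 0.11, 0.014, 0.081 and 0.29 in the authors' deposited table. With each library left out, the sign turned in 24 genes, whose log2 changes ran as follows: Acat2 -0.13 to 0.15, Mvk -0.088 to 0.46, Mvd -0.10 to 0.52, Idi1 -0.14 to 0.40, Fdps -0.19 to 0.43, Fdft1 -0.15 to 0.69, Sqle -0.10 to 0.52, Lss -0.12 to 0.88, Cyp51 -0.047 to 0.57, Hsd17b7 -0.28 to 0.68, Insig1 -0.56 to 1.01, Stard4 -0.18 to 0.38, Acaca -0.16 to 0.14, Fasn -0.13 to 0.42, Scd2 -0.35 to 0.96, Tm7sf2 -0.15 to 0.030, Dhcr7 -0.11 to 0.15, Srebf1 -0.36 to 0.22, Acly -0.37 to 0.24, Me1 -0.13 to 0.14, Pmvk -0.34 to 0.14, Nsdhl -0.40 to 0.10, Ebp -0.17 to 0.052, Scd1 -1.07 to 0.31. The cause was not tested. Depth is lowest in mutant 1, which limits the precision of its values.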

Other observations

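Several members have more than 1 isoform in the files. Fdps was split between NM_134469, at 54.4 and 68.9 FPKM in the controls and 49.5 and 87.2 FPKM in the mutants, and NM_001253751, at 13.3 and 16.5 FPKM in the controls and 17.2 and 15.3 FPKM in the mutants. Of these isoforms mutant 2 was the highest library only for NM_134469. Acly was split between NM_134037, which ran from 24.7 FPKM in mutant 1 to 41.2 FPKM in control 2, and NM_001199296, which ran from 26.5 FPKM in mutant 1 to 45.03 FPKM in mutant 2. Isoform estimates were not tested.

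The authors' deposited table and the FPKM files weigh Idi1 differently. Its mean normalized count of 257.6 in the controls was 0.0787 of the fragments implied by its FPKM intervals, while for 21 of the 27 genes that ratio lay between 0.677 and 0.819. Lower ratios were also found for Acaca (0.410), Acat2 (0.502), Fdps (0.539), Me1 (0.541) and Insig1 (0.571). The cause was not tested.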
